A study of Homo sapiens with 4 samples.

Results

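Tail-to-tail poly(A) regions are places where a transcript of the plus strand and a transcript of the minus strand end facing each other. They were taken from a table of 31081 poly(A) regions of the genome build hg19 by position alone. A pair was counted when a plus-strand region lay to the left of a minus-strand region on the same chromosome, the regions did not overlap, and the start of the minus region minus the end of the plus region (the gap) was 1 to 2000 bases. The rule gave 1611 pairs, made of 1122 plus-strand and 1120 minus-strand regions. These 2242 regions were 7.21% of all regions and held 13.3% of all reads.

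The cells were DICER(ex5), a line with a hypomorphic DICER made from HCT116 human colon cancer cells. Dicer cuts double-stranded RNA, above all the precursors of microRNAs. The series holds 4 libraries of this line and no parental line, other treatment or time point, so comparisons are between regions and between libraries. The labels call the libraries biological quadruplicates without saying which cultures they came from, and the spread between them may be partly technical.

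Poly(A) site sequencing reads across the point where the tail begins and so marks the 3' end of the transcript. An mRNA is cut after a poly(A) signal by the cleavage and polyadenylation machinery, and RNA polymerase II goes on transcribing beyond the cut before it leaves the DNA. Where neighbouring genes converge, the polymerases from both sides can therefore enter the same stretch of DNA even when the mature mRNAs stop short of each other. Mature mRNAs of a converging pair share complementary sequence only if their 3' ends pass each other. In the pairs described here the ends, as the table gives them, did not pass.

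The table gives no gene names, and neither an annotation nor a genome sequence of hg19 was used here. Pairs are therefore named by the end of the plus region and the start of the minus region, and no sequence is shown. These borders are taken here as the 3' ends that face each other. Member regions had a median width of 33 bases, and where reads ended within a region is not given. Short gaps are thus distances between region borders, not between measured cleavage sites. The strand column was read as the strand of the transcript. The libraries held 2163977 to 5713530 reads. Levels are given as CPM, a region's reads divided by its library's total and scaled in the usual way.

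The facing ends were spread over the whole range of gaps, most densely at 51 to 250 bases. The median gap was 876 bases, with quartiles of 403 and 1391 bases. Per 100 bases of gap, there were 76.0 pairs at 1 to 50 bases, 122 at 51 to 100, 109 from there to 250 and 94.0 from there to 500. The density was 80.6 pairs per 100 bases over 500 and up to 1000, and 71.1 over 1000, where 711 of the 1611 pairs lay. It went on declining beyond the limit, with 64.5 per 100 bases up to 3000 and 49.5 over 4000 and up to 5000. The 2000-base limit therefore cut a continuous distribution. Just inside it lay the pairs at 220322430 and 220324430 on chromosome 1 (gap 2000, with 37 and 118 reads on the plus and the minus strand) and at 74559684 and 74561680 on chromosome 17 (gap 1996, 58 and 25 reads). Just outside it, with gaps of 2007 bases, were those at 140892559 and 140894566 on chromosome 5 (49 and 3335 reads) and at 101471004 and 101473011 on chromosome 10 (46 and 220 reads).

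The reverse order, with the plus-strand region on the right, was found in 620 pairs within 2000 bases. Ends of converging transcripts that have passed each other give this order, and so can other arrangements. At gaps of 1 to 50 bases there were 38 tail-to-tail pairs, against 94 in reverse order. Over 1000 bases there were 711 tail-to-tail pairs, against 192 in reverse order. A further 171 pairs of opposite-strand regions overlapped. Measured from 3' end to 3' end, 1611 pairs (67.3%) had the plus-strand end on the left and 784 had it at or to the right of the minus-strand end, within 2000 bases either way. The fullest bin of 100 bases held 237 pairs with the plus-strand end 0 to 99 bases to the right, 164 of them overlapping regions. The first bin of tail-to-tail pairs held 99, and the next 118. On the side of reverse order the number dropped to 33 pairs in the bin that starts at 400 bases, whereas on the other side 95 pairs still lay over 400 and up to 500 bases apart.

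**Figure D1:**
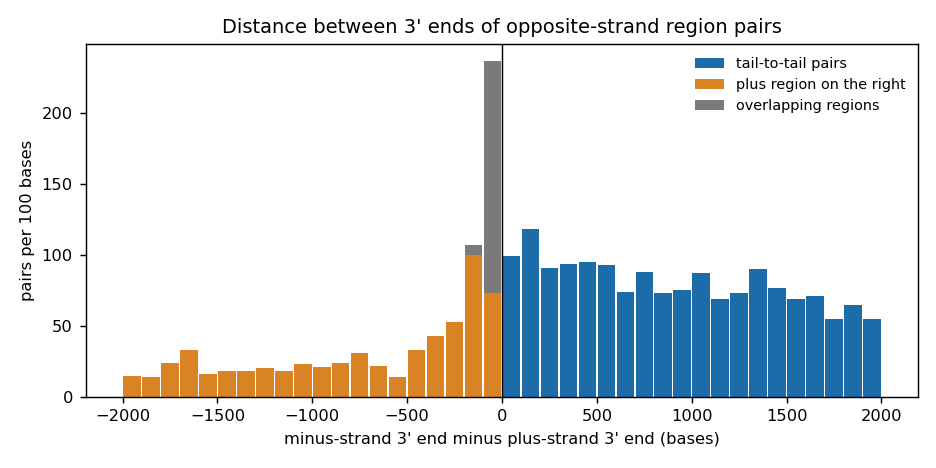
Number of opposite-strand region pairs per 100 bases of distance between their 3' ends, from the plus-strand end to the minus-strand end; positive distances are the tail-to-tail pairs (blue), negative ones have the plus-strand end on the right (orange, plus region on the right; grey, overlapping regions). The tail-to-tail side falls slowly to 55 pairs in its last bin, while the other side holds 237 pairs in its first bin and 33 in the bin that starts at 400 bases.

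Many converging ends were not simple pairs of single sites. Of the 2242 regions, 673 belonged to several pairs, up to 7 each. Regions linked by shared pairs formed 783 groups. In 428 of them (54.7%) a single plus region faced a single minus region, in 254 a single region faced several, and in the others both strands had several regions. The largest group held 12 regions. In 818 pairs the regions were each other's nearest, and in the same number no other region lay between them. Taking the strongest region of each strand, 774 of the 783 groups had their main ends apart, with a median distance of 758.5 bases, and in 9 they met or lay in reverse order. Other arrangements occurred beside the tail-to-tail ones: 423 member regions (18.9%) also belonged to a reverse-order pair within 2000 bases or to an overlapping pair.

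Tail-to-tail regions were spread unevenly over the chromosomes. They made up 13.1% of the regions of chromosome 17 (228 of 1742) and 10.9% of those of chromosome 16, against 3.43% on chromosome 13 and 1.76% on chromosome 18 (10 of 569). Chromosome 9 had 9.94%, chromosome 19 9.41%, chromosome 22 8.14% and chromosome X 4.19%. As background, chromosomes 17 and 19 are rich in genes and chromosomes 13 and 18 are poor in them. Whether gene density has a part in these shares was not tested.

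Member regions were read more deeply than the other regions. Their median level was 13.3, 12.5, 13.3 and 13.3 CPM in libraries 1 to 4, against 6.33, 6.47, 4.73 and 4.77 CPM in the 28839 other regions. On the log2(CPM + 1) scale the medians differed by 1.11 ± 0.239 (SD, n = 4) and the members were higher in 4 of 4 libraries. An exact two-sided sign-flip permutation test over the libraries gave p = 0.13, the smallest that 4 libraries allow. Regions of 10 bases or fewer were rarer among the members, at 2.63% (59 regions) against 12.7% of the others, and the median widths were 33 and 27 bases. Without such narrow regions the difference was 0.97 on the same scale. Reads were present in all 4 libraries at 97.8% of member regions and at 90.8% of the others. Fewer cells using a site and less RNA per cell cannot be told apart in such bulk libraries.

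How evenly the converging strands were read was examined next. The weaker strand share is the smaller of the 2 regions' reads as a percentage of the pair's reads. Its median over the 1611 pairs was 19.3%, 17.6%, 18.4% and 18.0% in libraries 1 to 4, a mean of 18.3% ± 0.712 (SD, n = 4). With reads pooled over libraries it was 20.0%, with quartiles of 7.81% and 34.5%. Reads thus usually fell mostly on one side, on the plus and the minus strand about equally often. The plus region had more pooled reads in 805 pairs and the minus region in 800, with 6 ties. The plus region was the stronger in every library in 666 pairs and the minus region in 644, which left 301 pairs (18.7%) without the same stronger strand in all 4 libraries. The weaker strand held under 10% of the pooled reads in 483 pairs and 40% or more in 260.

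Tail-to-tail and reverse-order pairs had similar values of balance, and 4 libraries are too few for the test used to pass 0.05. In the 620 reverse-order pairs the median weaker strand share was 18.3% ± 0.534 (SD, n = 4). The difference between the sets was 0.0672 ± 0.402 percentage points (SD, n = 4), tail-to-tail being higher in 3 of 4 libraries (exact two-sided sign-flip permutation test, p = 0.875, where 0.13 is the smallest possible). In mutually nearest pairs it was 0.890 points, at that smallest p. Its sign changed under several other choices, which are given with the dependence on processing. Overlapping pairs had 18.4% ± 2.51, and same-strand neighbours within 2000 bases, where the shares are of the weaker neighbour, had 20.1% ± 1.12 (SD, n = 4). The same regions were read in each library, and the SDs do not hold the spread among pairs.

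Balance by gap ran within a few points. Tail-to-tail pairs had a median weaker strand share of 16.5% ± 1.46 at 1 to 50 bases (38 pairs), 21.5% ± 1.19 at 51 to 100 bases (61 pairs) and 21.0% ± 0.996 over 100 and up to 250 bases (163 pairs; SD, n = 4). It was 20.0% ± 0.889 over 250 and up to 500 bases, 17.1% ± 0.955 over 500 and up to 1000 and 17.7% ± 0.573 over 1000 (SD, n = 4). The closest class holds few pairs. The depth of the pairs changed with the gap as well: the median reads of the weaker region were 153 over 100 and up to 250 bases and 72 over 1000, and those of the stronger one 801 and 553. Its part in the balance was not tested.

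**Figure D2:**
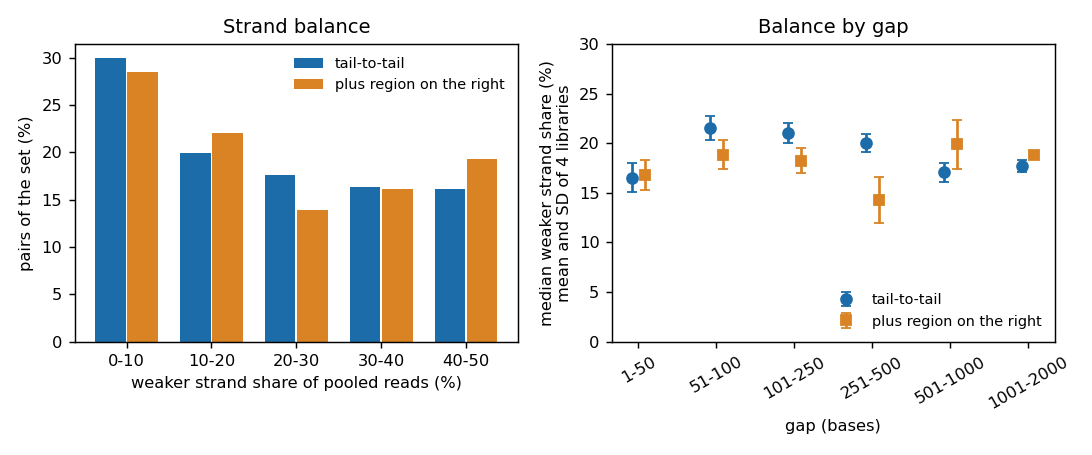
Left, percentage of pairs by weaker strand share of the pooled reads, for tail-to-tail pairs (blue) and pairs with the plus region on the right (orange). Right, median weaker strand share by gap class, as mean and SD of 4 libraries; the tail-to-tail values run from 16.5% at 1 to 50 bases through 21.5% at 51 to 100 to 17.7% over 1000.

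The most strongly read pairs were mostly one-sided, and ranking pairs by summed reads itself favours pairs with a very strong region. At the pair with the most reads, on chromosome 1 (93307495 and 93307710, gap 215), the plus region had 15989, 7731, 16209 and 11297 reads in libraries 1 to 4 and the minus region 46, 20, 30 and 22. The plus region thus took at least 99.7% of the pair's reads in every library. On chromosome 20 (60963604 and 60963916, gap 312) the plus region gave 2922 ± 443 CPM and the minus region 13.5 ± 0.664 CPM (SD, n = 4). On chromosome 2 (101622896 and 101623673, gap 777) the values were 2522 ± 423 and 14.3 ± 6.35 CPM (SD, n = 4). The pairs on chromosomes 1 and 2 were also among the 5 least even of the 696 pairs with at least 100 reads in both regions. So was the chromosome 20 plus region with another minus region 1529 bases away. With that floor of 100 reads, only pairs with many reads can reach the lowest weaker strand shares.

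Of the 10 pairs with the most reads, the minus region was the stronger in 3. On chromosome 17 (4848527 and 4848919, gap 392) it gave 2080 ± 506 CPM against 149 ± 20.7 CPM of the plus region, and on chromosome 6 (159185912 and 159186764, gap 852) 1587 ± 182 against 119 ± 8.78 CPM (SD, n = 4). The pair at 838860 and 840183 on chromosome 11 (gap 1323) was the most even of the 10, with a plus share of 41.2%, 45.4%, 33.5% and 35.7% in libraries 1 to 4. The plus share of the other 4 pairs ran from 81.5% to 96.6% of the pooled reads.

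The borders of 2 facing regions can be almost in contact. At 61909413 and 61909419 on chromosome 17 the gap was 6 bases, the shortest among the 696 pairs, and both regions were strongly read. The plus region had 3317, 1467, 3730 and 2503 reads in libraries 1 to 4, and the minus region 1046, 321, 1368 and 999. The plus share was 75.7% ± 4.64 (SD, n = 4). The ends at 102952897 and 102952919 on chromosome 7 (gap 22) were close to even over the libraries, with a plus share of 50.9% ± 12.5 (SD, n = 4), but in libraries 1 to 4 it was 57.5%, 65.1%, 42.1% and 38.8%. The other 3 of the 5 shortest gaps, 22, 23 and 25 bases, had pooled plus shares of 18.6%, 96.7% and 15.9%. The 5 longest gaps among these pairs, 1972 to 1992 bases, had weaker strand shares from 6.41% to 34.8% of the pooled reads.

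The most even pairs lay on both sides of the median gap, but not at the shortest gaps. The 5 most even of the 696 pairs had gaps of 368, 460, 1519, 1657 and 1837 bases. The best read of them lay at 43247688 and 43248148 on chromosome 20 (gap 460), where the plus region gave 48.4, 46.7, 40.1 and 43.9 CPM in libraries 1 to 4 and the minus region 40.3, 49.4, 44.3 and 47.7 CPM. The plus region was the stronger in library 1 and the weaker in the other 3.

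Across pairs, the level of one strand said little about the level of the other. Among the 696 pairs with at least 100 reads in both regions, Pearson's r of log2(CPM + 1) between the plus and the minus region was 0.100 to 0.122 in the 4 libraries, and Spearman's rho was 0.107 to 0.130. Among the 174 reverse-order pairs read as deeply, r was -0.0749 to -0.00749. These correlations are across pairs that share libraries and, in part, regions. They describe the table and carry no p-value.

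**Figure D3:**
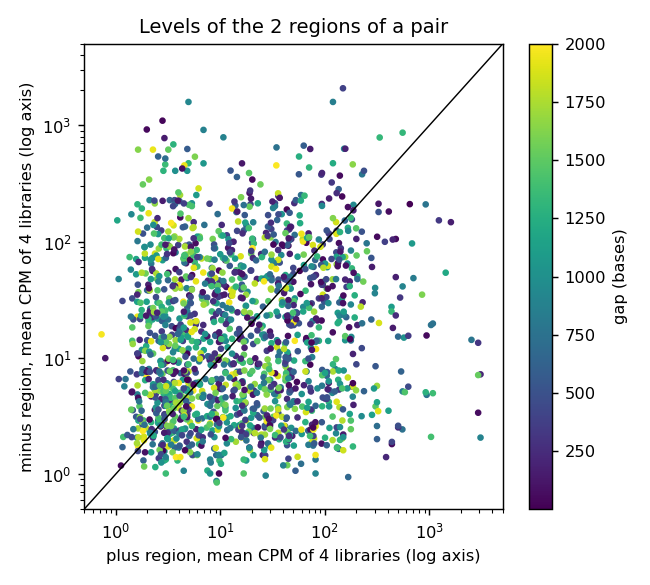
Mean CPM over 4 libraries of the plus region (horizontal, log axis) and the minus region (vertical, log axis) of each of the 1611 tail-to-tail pairs, coloured by gap in bases; the line marks equal levels. Points spread over both axes with no visible trend, and the strongest plus regions, near 3000 CPM, face minus regions of under 15 CPM.

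Whether facing regions moved together between libraries was asked with 4 libraries, too few for a correlation per pair. The log2 ratio of CPM (plus 1) between 2 libraries was therefore taken for every region, and the plus region's ratio was set against the minus region's across the 696 pairs. Pearson's r was 0.04 for libraries 1 and 2, 0.00 for 1 and 3, -0.03 for 1 and 4, 0.00 for 2 and 3, -0.02 for 2 and 4 and 0.02 for 3 and 4. Spearman's rho ran from -0.05 to 0.03. The regions of a pair changed in the same direction in 44.8% to 52.0% of pairs.

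The ratios themselves were repeatable where libraries 1 and 2 were set against libraries 3 and 4. Over the 1466 member regions with at least 100 reads, the ratio of library 1 to library 3 and that of library 2 to library 4, which share no library, had a Pearson's r of 0.87. The ratios of 1 to 4 and 2 to 3 gave 0.86. Those of 1 to 2 and 3 to 4 gave 0.13, and those libraries differed least. Set crosswise, the plus region's ratio of 1 to 3 against the minus region's of 2 to 4 gave -0.01 across the 696 pairs. A region's own change from libraries 1 and 2 to libraries 3 and 4 thus recurred in separate libraries. Its r with the change of the region it faced stayed near 0.

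Other arrangements showed weak values as well. Across the 3055 same-strand neighbours within 2000 bases, r was 0.02 to 0.14, with a median of 0.13 over the 6 pairs of libraries. It was 0.02 to 0.12 in the 174 reverse-order pairs and -0.01 to 0.15 in the 88 overlapping pairs with at least 100 reads in both regions. Spearman's rho was 0.01 to 0.07 in the same-strand neighbours, -0.07 to 0.01 in the reverse-order pairs and -0.01 to 0.11 in the overlapping pairs. By gap, the median r of tail-to-tail pairs was -0.05 at 1 to 250 bases (144 pairs), -0.02 up to 1000 (288 pairs) and 0.07 beyond (264 pairs). The differences between these sets were not tested, and weak correlations in such counts are no finding.

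**Figure D4:**
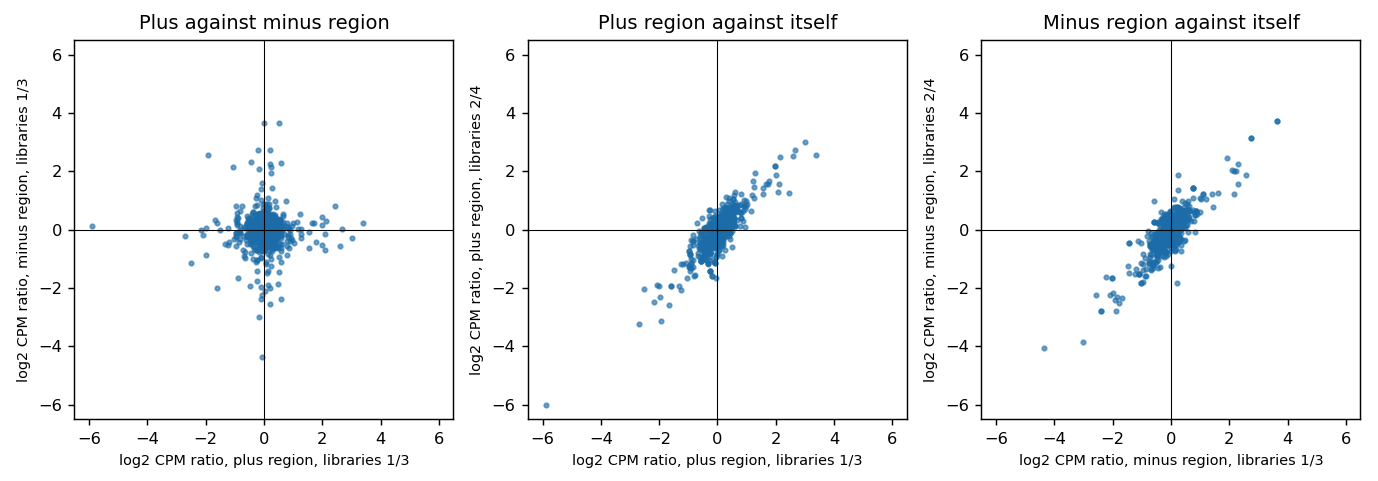
Log2 CPM ratios for the 696 tail-to-tail pairs with at least 100 reads in both regions: the minus against the plus region for library 1 over library 3 (left), and each strand's ratio of libraries 2 to 4 against its ratio of libraries 1 to 3 (middle, plus; right, minus). Left, the regions that changed lie along either axis (r = 0.00); middle and right, the same regions lie along the diagonal.

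Regions that differed strongly faced partners that did not follow. Between libraries 1 and 3, the plus region differed over 2-fold in 41 of the 696 pairs (5.89%) and the minus region in 49 (7.04%). Of all regions with at least 100 reads, 11.7% did. The units are unlike: a region can count in several pairs, and both regions of a pair needed 100 reads. Each of the 41 and 49 changes had the same direction between libraries 2 and 4, and 39 and 43 of them were over 2-fold there too. Taken in the direction of the plus region's change, the partner's median log2 ratio was 0.01, while the plus region's own was 1.72. In the other case the medians were 0.01 for the plus partner and 1.85 for the minus region. The partner changed over 2-fold in the same direction in 2 of the 41 pairs and in the opposite direction in 2, and likewise in 2 and 2 of the 49. Between libraries 2 and 3, where 33.5% of all regions with at least 100 reads differed over 1.5-fold, both regions of a pair did so in the same direction in 27 pairs and in opposite directions in 27.

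Strand balance differed between libraries at some of the pairs. Fisher's exact test (strand by library, two-sided) was run for each 2 libraries, on counts thinned to the smallest library, for the 1521 tail-to-tail pairs with at least 100 reads. P-values were adjusted by Benjamini-Hochberg over these and 556 reverse-order pairs, and those under 0.05 were called. The test sets libraries, not conditions, against each other. Between libraries 1 and 3 the balance differed in 197 pairs (13.0%), where 12.2% of all 2077 pairs were called. It differed in 184 between libraries 1 and 4 (12.1%, of all pairs 11.6%), in 288 between libraries 2 and 3 (18.9%, of all pairs 17.4%) and in 248 between libraries 2 and 4 (16.3%, of all pairs 15.5%). It differed in 2 pairs between libraries 1 and 2 (0.131%, of all pairs 0.0963%). Between libraries 3 and 4 it differed in 0 (of all pairs 0.0%), with 90 pairs at an unadjusted p under 0.05. In at least one comparison the balance differed in 392 pairs (25.8%, of all pairs 24.4%), where all pairs include the tail-to-tail ones. A region can belong to several pairs, so a single changed region can give several called pairs. Among the 556 reverse-order pairs alone, 20.5% were called in at least one comparison, 10.3% for libraries 1 against 3 and 1 against 4, and 13.3% for 2 against 3 and 2 against 4. These shares were below the tail-to-tail ones, and the difference was not tested. Depth differed as well. The median log2(CPM + 1), as a mean over libraries, was 2.97 in the 626 reverse-order regions that were not members, against 3.82 in members. With at least 500 reads in the pair, 35.2% of tail-to-tail pairs were called (of all pairs 33.6%). The part of depth in the difference was not tested. The count of tail-to-tail pairs was 249 without library 2 (16.4%, of all pairs 15.5%) and 616 with the counts as deposited (40.5%, of all pairs 38.9%).

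The calls mostly rested on one strand. Of the 197 pairs called between libraries 1 and 3, the plus region alone differed over 1.5-fold in 67 and the minus region alone in 69. Both did so in opposite directions in 30 and in the same direction in 2, and neither did in 29. The plus share was higher in library 1 in 114 and lower in 83. Between libraries 2 and 4 the plus region alone differed in 83 of the 248 and the minus region alone in 82, and the plus share was higher in library 2 in 125 and lower in 123. The test calls changes in the ratio of the strands, so pairs whose regions moved together were rarely called. These splits therefore follow in part from the test. The 696 pairs with at least 100 reads in both regions were taken without calls. Among them, both regions differed over 1.5-fold between libraries 1 and 3 in the same direction in 10 and in opposite directions in 12.

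In the 777 pairs that had 100 reads or more in each library, the plus share varied over the libraries by a median of 4.74 percentage points. The range reached 20 points in 45 pairs, and in 57 (7.34%) the libraries lay on both sides of 50%.

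The widest range was found on chromosome 19, at 5691717 and 5691829 (gap 112). The plus region had 57, 17, 4058 and 2289 reads in libraries 1 to 4, and the minus region 1131, 483, 1144 and 816. The plus share was 4.80%, 3.40%, 78.0% and 73.7%. In CPM the plus region was 64.9-fold higher in library 3 than in library 1 and 73.1-fold higher in library 4 than in library 2, while the minus region's ratios were 0.923 and 0.918. By Fisher's exact test with Benjamini-Hochberg adjustment, p was 6.72e-197 for libraries 1 against 3 and 2.82e-189 for 2 against 4. The pair was picked for its range over these same libraries, so small p-values follow from the choice. They rest on reads and do not measure the spread between replicates. A further plus-strand region just downstream (5691838 to 5691906), which overlaps the minus region, had 1113, 481, 1243 and 855 reads. That is 214, 222, 218 and 215 CPM, with no such step between libraries. The reads of this region and of the minus region it overlaps were close in each library. Whether reads there were assigned to the right strand cannot be told from the table, which limits what the minus region's reads and the plus share of this pair mean.

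Other pairs shifted through either strand. On chromosome 9 (127113746 and 127115733, gap 1987) the minus region had 747, 364, 117 and 72 reads in libraries 1 to 4 and the plus region 94, 35, 121 and 103. The minus region was thus 7.0-fold higher in library 1 than in library 3, and the plus share was 11.2%, 8.77%, 50.8% and 58.9%. On chromosome 11 (118964266 and 118964577, gap 311) the minus region had 204, 43, 842 and 572 reads and the plus region 757, 371, 745 and 482. The next minus-strand region, 118967208 to 118967249, had 159, 54, 237 and 185.

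On chromosome 8 (23153801 and 23154687, gap 886) it was the plus region that differed most, with 198, 106, 46 and 63 reads against 99, 44, 178 and 87 of the minus region. On chromosome 12 (53700970 and 53701231, gap 261) both regions shifted, in opposite directions. The plus region had 96.1, 100.3, 55.3 and 66.0 CPM in libraries 1 to 4 and the minus region 64.1, 37.0, 119 and 114 CPM. In each of these 5 pairs libraries 1 and 2 lay on one side and libraries 3 and 4 on the other, and the ranges did not overlap. Neither the labels nor the table name a batch for this division, and its cause was not tested.

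In the pairs chosen for the smallest range, the plus share varied by under 2 points, also far from 50%. They were picked from 268 pairs with at least 100 reads in every library and a weaker strand share of at least 20%. Picking the smallest ranges itself favours small values, and the counting error of the shares was not estimated. Whether these pairs hold their balance more closely than others was therefore not tested. At 126132567 and 126132804 on chromosome 11 (gap 237) the plus share was 24.0%, 23.5%, 24.9% and 23.4% in libraries 1 to 4. At 100031751 and 100032869 on chromosome 7 (gap 1118) it was 49.6%, 49.7%, 51.1% and 50.1%, with 1056 reads on the plus and 1047 on the minus strand in all. The pairs at 145538394 on chromosome 8, 139076021 on chromosome 3 and 136228055 on chromosome 9, named by their plus ends, had plus shares of 75.4% ± 0.868, 26.0% ± 0.838 and 67.0% ± 0.880 (SD, n = 4).

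**Figure D5:**
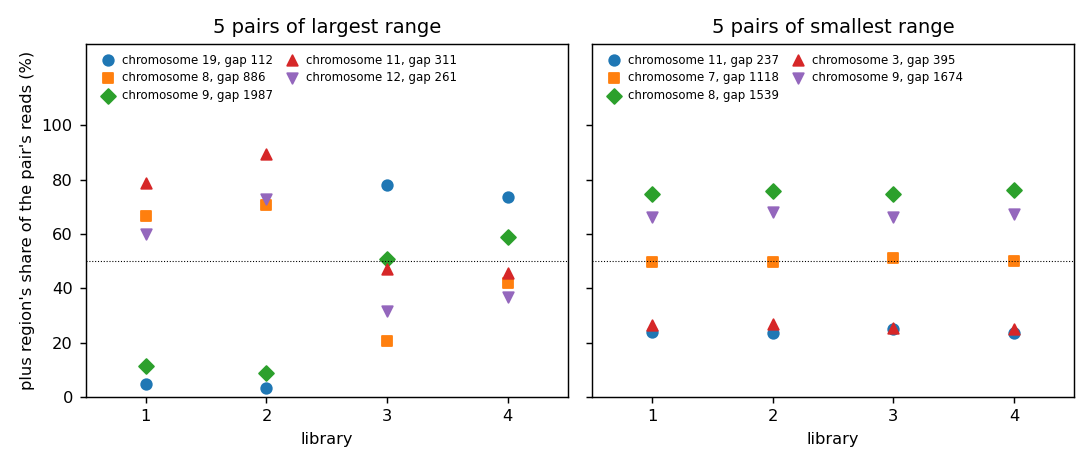
Share of the pair's reads in the plus region in libraries 1 to 4, for the 5 pairs of largest range (left) and the 5 of smallest range with a weaker strand share of at least 20% (right), among pairs with at least 100 reads in every library. Left, the chromosome 19 pair stands at 4.80%, 3.40%, 78.0% and 73.7%; right, each pair stays within 2 points.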

How the data were processed

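Poly(A)+ RNA was fragmented and primed with an anchored oligo(dT) primer, per the labels' protocols. The authors deposited raw read counts per poly(A) region and library, with chromosome, start, end and strand, per the file headers; the position columns are the other deposited values. Bowtie2 2.2.5 and hg19 are named in the submitters' processing notes. The sources used here do not say how reads were joined into regions, filtered or deduplicated. The lowest maximum over libraries of any region was 11 reads, so weak partners are missed and the weaker strand share is bounded by this minimum. Oligo(dT) can prime inside A-rich stretches, which were not marked here. Counts of PCR reads are not independent molecules, so Fisher's test can call too many pairs.

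Pairs, shares, ratios and tests were computed with Python 3.11.15, numpy 2.4.6, pandas 2.3.3 and scipy 1.17.1, and TMM factors with edgeR 4.0.16. Scripts were tested on simulated data. Named pairs were the 10 with most reads, the 5 with shortest and longest gaps and most and least even shares (at least 100 reads in both regions), the 5 with the largest and smallest range of plus share (at least 100 reads in every library), and the 2 on either side of the limit; a pair sharing a region with one already taken was skipped. The members, rules and alternatives were chosen with earlier results of these data known.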

Additional observations from a re-analysis of the deposited data

Results flagged for a closer look

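Of 49 values compared over the 4 libraries, 4 had a library far from the other 3, where chance gives about 1 in 20. The median level of member regions was 12.5 CPM in library 2, the library with the fewest reads, and 13.3 CPM in each of the others. The plus share at 159185912 and 159186764 on chromosome 6 was 6.17% in library 2 and 7.19% to 7.40% in the others. The plus share at 59062147 and 59062917 on chromosome 19 was 82.1% in library 4 and 81.2% to 81.4% in the others. The plus share at 43247688 and 43248148 on chromosome 20 was 54.5% in library 1 and 47.5% to 48.6% in the others. By Fisher's exact test with Benjamini-Hochberg adjustment, the balance of these pairs was not called different between any libraries. The lowest adjusted p was 0.192 on chromosome 6, for libraries 2 against 4, and 0.284 on chromosome 20, for libraries 1 against 3. On chromosome 19 it was 0.107, for libraries 1 against 3, a comparison without library 4. The lowest there with library 4 was 0.145, for libraries 1 against 4.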

How the results depend on the processing

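The number of pairs and their gaps follow the counting rule. Mutually nearest pairs numbered 818 with a median gap of 581 bases, gaps up to 1000 bases gave 900 pairs (median 450) and gaps up to 5000 bases 3273 (median 2043). With at least 100 reads in both regions 696 pairs remained, and counting groups of linked regions, chosen after seeing the data, gave 783. The median weaker strand share was 24.9% with at least 100 reads in both regions, 19.2% in mutually nearest pairs, 20.0% from pooled reads and 18.0% to 18.6% with a library left out. The difference in balance from reverse-order pairs changed sign to -0.186 points without regions of 10 bases or fewer and to -0.137 with gaps up to 5000 bases (chosen after seeing the data). It ran from -0.0076 to 0.268 with a library left out, and the other alternatives gave 0.401 to 0.890. The level difference of member regions kept its direction under all alternatives run, at 0.78 with a pseudocount of 5 CPM to 1.23 with 0.1 CPM, and 1.04 to 1.20 with a library left out. The median r of facing regions was -0.036 in mutually nearest pairs and -0.044 with at least 500 reads in both regions (range over library pairs -0.13 to -0.03). It was -0.02 to 0.00 with a library left out. Balance differed between some libraries in 616 pairs with counts as deposited (40.5%; all pairs 38.9%), where the deeper libraries keep more reads, and in 241 of 776 mutually nearest pairs (31.1%; all pairs 28.7%). It differed in 249 to 340 pairs with a library left out (16.4% to 22.4%; all pairs 15.5% to 21.0%), the lowest without library 2. The other alternatives run moved counts and gaps by under 1.5 times and the other values by less than the spread between libraries or library pairs. How many single pairs changed their call was not counted. Fisher's calls at weak pairs are limited by depth, since thinning left 2163977 reads a library. No paired comparison of conditions was possible because the series has a single group. The sign-flip tests used differences taken within each library.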
